A study of Bos taurus with 8 samples.

Results

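The genes described here build fat and cholesterol in the liver. The module names 43 genes of fatty acid synthesis, fatty acid desaturation and elongation, the SREBP control system, the cholesterol pathway, sterol uptake, triacylglycerol assembly and the lipid droplet coat. A member was taken as any non-control probe whose gene name on the array equals a name in the list. No measured value entered that matching, but the list itself was chosen with earlier results of these data known. Of the 43 names, 41 had a probe among the 15008 non-control probes of the array, with 1 probe each. STARD4, a carrier of cholesterol between membranes, and SC5D, a late sterol desaturase, had no probe of that name. The array does carry a probe under the older name SC5DL, which the RefSeq table of the ARS-UCD2.0 assembly pairs with SC5D through its accession. That probe is outside the rule and is given separately below.

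Liver RNA of Holstein bull cattle was hybridised as Cy3-labelled cRNA to 1-colour Agilent arrays of 60-base probes. The trial used 11 bull cattle aged 5 to 6 months, each with a rumen fistula, in a Latin square in which every animal receives each of 3 daily doses (0, 2 and 4 g per head) of egg-yolk immunoglobulin against bacterial lipopolysaccharide. All animals ate hay for 11 days, then a high-grain diet of 50% concentrate for 2 days to bring on subacute ruminal acidosis, then hay for 1 day, with the dose given through the fistula for 14 days. The 8 arrays analysed here come from 4 of these animals, numbered 19, 20, 23 and 24, each with 1 array at 0 g (the control) and 1 at 4 g, both labelled as taken 2 days after the challenge. The comparison asks whether the antibody altered the hepatic transcriptome at that labelled time, and every array, control included, comes from a challenged animal. The labels do not give the period of the square in which each sample was taken, and p-values rest on these 4 pairs only. All 8 arrays lie on 1 slide, with animals 19 and 20 in row 1 and animals 23 and 24 in row 2.

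Acetyl-CoA carboxylase and fatty acid synthase make palmitate from acetyl-CoA, and desaturases and elongases then reshape it. Ruminants make most new fatty acid in adipose tissue and little in liver, while their liver synthesises cholesterol actively. The SREBP transcription factors are held in the endoplasmic reticulum by SCAP and the INSIG proteins when sterols are plentiful, and on release they switch on cholesterol and fatty acid genes together.

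Probe sequences are shown for the enzymes that open each branch and for those whose probe position matters for reading a value. All are written 5′ to 3′ in lower case, and coordinates are those of the array files on the UMD 3.1 bovine genome. The probes of ACACA (chr19:13966524-13966583, minus strand) and FASN (chr19:51402169-51402228, plus strand) stand for palmitate synthesis, and that of LSS (chr1:147625737-147625796, minus strand) for ring closure in the sterol pathway.
ACACA: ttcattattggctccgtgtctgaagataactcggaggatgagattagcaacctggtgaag
FASN: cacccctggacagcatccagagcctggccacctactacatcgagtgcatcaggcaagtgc
LSS: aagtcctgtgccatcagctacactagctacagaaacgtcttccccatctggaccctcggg

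FADS1 and FADS2 are paralogous desaturases, so both probes are shown. The FADS1 probe lies at chr29:40941970-40942029 on the minus strand. The FADS2 probe lies at chr14:39504978-39505037 on the plus strand, whereas the RefSeq table places the bovine FADS2 gene on another chromosome. The value printed for FADS2 is therefore that of a probe whose mapped position is not the gene's, and which transcript it reads was not tested.
FADS1: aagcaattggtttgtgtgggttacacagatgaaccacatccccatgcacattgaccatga
FADS2: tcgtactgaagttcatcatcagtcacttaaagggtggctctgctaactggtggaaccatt

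The probes of HMGCS1 (chr20:31475481-31475540, plus strand) and DHCR7 (chr29:48930327-48930386, minus strand) hold the hexamer AATAAA, the usual polyadenylation signal, shown in capitals within 30 bases of each probe. AATAAA, searched on the probe's own strand, occurred in 3 of the 41 member probes (7.32%; ACAT2 is the other) and in 1427 of all 15008 probes (9.51%). For INSIG2, ACAT2, TM7SF2, LPIN1 and DGAT1 the mapped span is longer than the 60-base probe, so the probe sequence is split on the genome.
HMGCS1: gtgggtaactttgAATAAAgttttagagaa
DHCR7: ggacttctgtgtcacAATAAAgcaagtctc

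A level below is the log2 processed signal of a probe minus the 75th percentile of its array, so that 0 is that percentile and a step of 1 is a 2-fold change in signal. Levels of different probes are not comparable with each other, since probes differ in binding. Testing asked for a signal well above background on 4 or more of the 8 arrays, which left 39 members among 10985 tested probes. Of the 41 members, 36 were well above background on all 8 arrays. ACACB, the acetyl-CoA carboxylase of the mitochondrial surface, was well above background on 0 of 8 arrays and was not tested. MVK, mevalonate kinase, was well above background on 2 of 8 arrays, both of animal 19, at -4.27 at 0 g and -3.58 at 4 g. The other 6 MVK readings lay between -7.95 and -6.40 and were not well above background, so MVK was not tested either. With 1 liver sample per array, fewer cells of a type and less RNA per cell cannot be told apart.

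Several facts about the arrays touch every result. Hepatocyte markers were well above background for 19 of 20 genes on every array, with a mean level of 4.56 to 5.04 at 0 g and 4.67 to 4.91 at 4 g, while 6 to 9 of 15 rumen squamous markers were, with a mean level between -5.76 and -3.73. These 2 lists bear on the tissue because the sample labels name liver and the extraction protocol names rumen epithelium. Of 16 adipocyte markers 8 to 13 were well above background at 0 g and 8 to 10 at 4 g, with mean levels of -3.86 to -2.11 and -3.81 to -3.21. Of these, GPD1, CIDEA, PPARG, RBP4, CFD, LPL, FABP4 and PCK1 were so on all 8 arrays, and LEP, LIPE and PLIN1 on 0. The highest adipocyte mean, -2.11 with 13 of 16 well above background, was on the 0 g array of animal 23. The other 7 arrays had means of -3.86 to -3.06. FABP4, which binds fatty acids in adipocytes, endothelium and macrophages, was lower at 4 g in 4 of 4 animals, as were 228 of 10985 probes (2.08%). It differed by -2.44 ± 0.26 (SE; limma, adjusted p = 0.614), with an unadjusted limma p under 0.05, as had 120 probes (1.09%). Of 9 tested adipocyte markers 3 had a fitted difference above 0 and 6 below. Below 0 were also 12 of 12 endothelial (median -0.19), 6 of 9 macrophage (median -0.01) and 12 of 15 stellate and fibroblast markers (median -0.41). So were 11 of 11 pancreatic acinar, 5 of 7 rumen squamous and 6 of 19 hepatocyte markers. Of all tested probes 55.1% were above 0, with a median of 0.03. Of the stellate and fibroblast markers 3 had an unadjusted limma p under 0.05, and 0 an adjusted one. The part of FABP4 in the members' values was not tested. The 18 pancreatic acinar markers on the array had a mean level of 6.40 on the 0 g array of animal 23 and of -5.19 to -3.56 on the other 7 arrays. The 75th percentile of signal was 125.8 on the 4 g array of 19 and 126.3 on the 0 g array of 20, against 218 to 311.7 on the other 6.

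The animal labels of 4 arrays are in doubt. Over all probes, 8 had 2 separate levels, each held by several arrays, with a gap of more than 2 log2 units between them. Probes set apart on fewer arrays, such as the acinar marker CPA1 on the 0 g array of 23, are not among these 8. Both arrays of animal 19 shared a level in 8 of these 8 probes, and both arrays of animal 20 in 8 of 8. The arrays labelled 23 shared a level in 2 of 8 and those labelled 24 in 1 of 8. In 6 of 8 the 0 g arrays labelled 23 and 24 sat on one level and their 4 g arrays on the other (LOC768255, IL20RA, GIMAP4, ULBP3, GIMAP6 and SUN3). Differences within the arrays labelled 23 and 24 are therefore given as labelled, and the results are repeated with animals 19 and 20 alone.

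No member passed the test between 4 g and 0 g. In the paired limma fit, 0 of 39 members had an adjusted p under 0.05, and 0 of all 10985 probes did (0%). At an unadjusted p under 0.05 there were again 0 of 39 members, against 120 of 10985 probes (1.09%). Fitted differences ran from -0.80 (MID1IP1) to 0.58 (ELOVL6), with 24 members above 0 and 15 below, a median of 0.04 for the members and 0.03 for all tested probes, of which 55.1% were above 0. The 0 g and 4 g arrays did not overlap for 0 members, against 67 probes (0.61%). Only 1 member, DGAT2, had the same sign in all 4 animals, against 576 of 10985 probes (5.24%). Higher readings at 4 g were seen in 0 animals for 1 member, 1 animal for 9, 2 animals for 22 and 3 animals for 7.

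**Figure D1:**
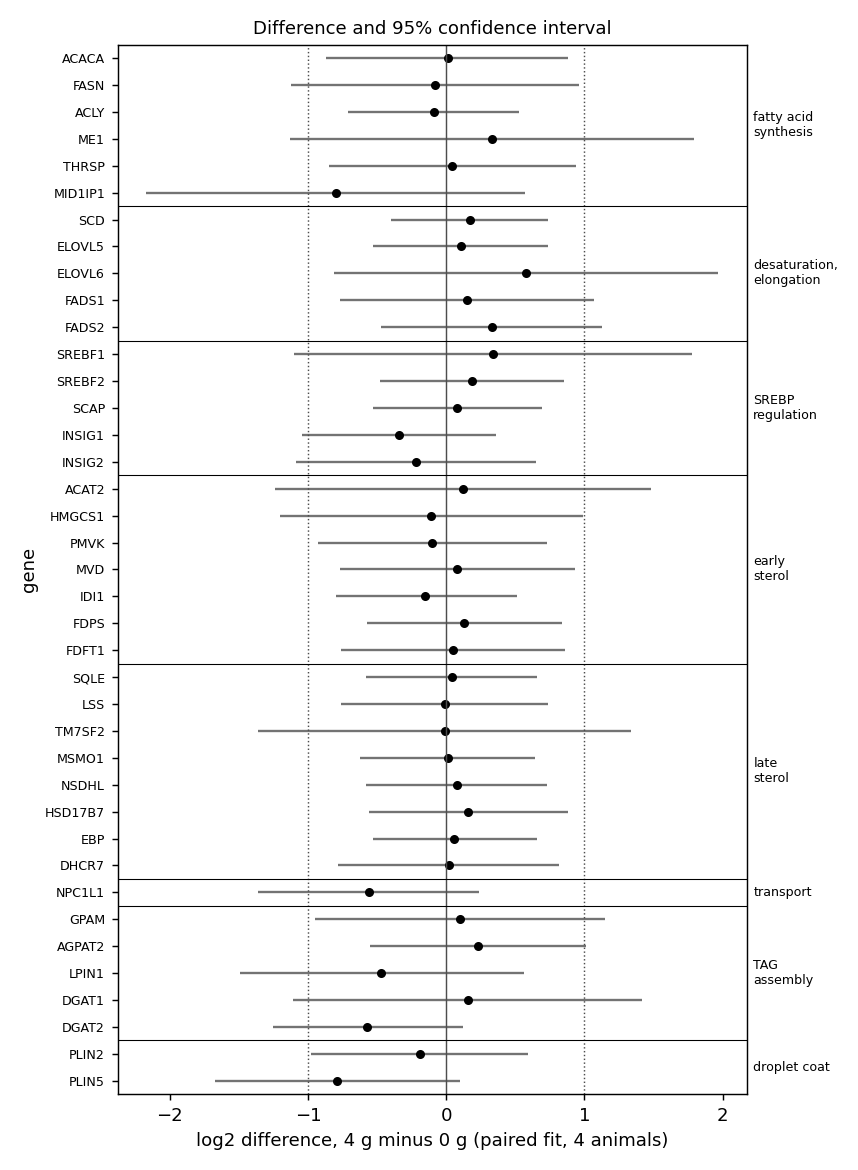
Fitted log2 difference (4 g minus 0 g, points) and its 95% confidence interval (lines) for the 39 tested members, from the fit over 4 animals paired as labelled, grouped by role. Every interval crosses 0, and 20 of 39 lie wholly between the dotted lines at a 2-fold change in either direction.

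How large a change could have gone unseen differs by branch. The 95% confidence interval lay within a 2-fold change in either direction for 20 members and reached it for 19, with a median half-width of 0.80 log2 units for members and 0.70 for all tested probes. In the sterol pathway 12 of 15 tested members had such a bounded interval, which leaves out ACAT2, HMGCS1 and TM7SF2. In fatty acid synthesis, desaturation and elongation 5 of 11 did (ACACA, ACLY, THRSP, SCD and ELOVL5), and in triacylglycerol assembly 0 of 5. For ELOVL6, ME1 and SREBF1 the upper limits were 1.97, 1.79 and 1.78, so a rise of well over 2-fold lies within their intervals. Members also spread a little more than other probes over the 8 arrays, with a median range of 1.35 against 1.21.

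**Figure D2:**
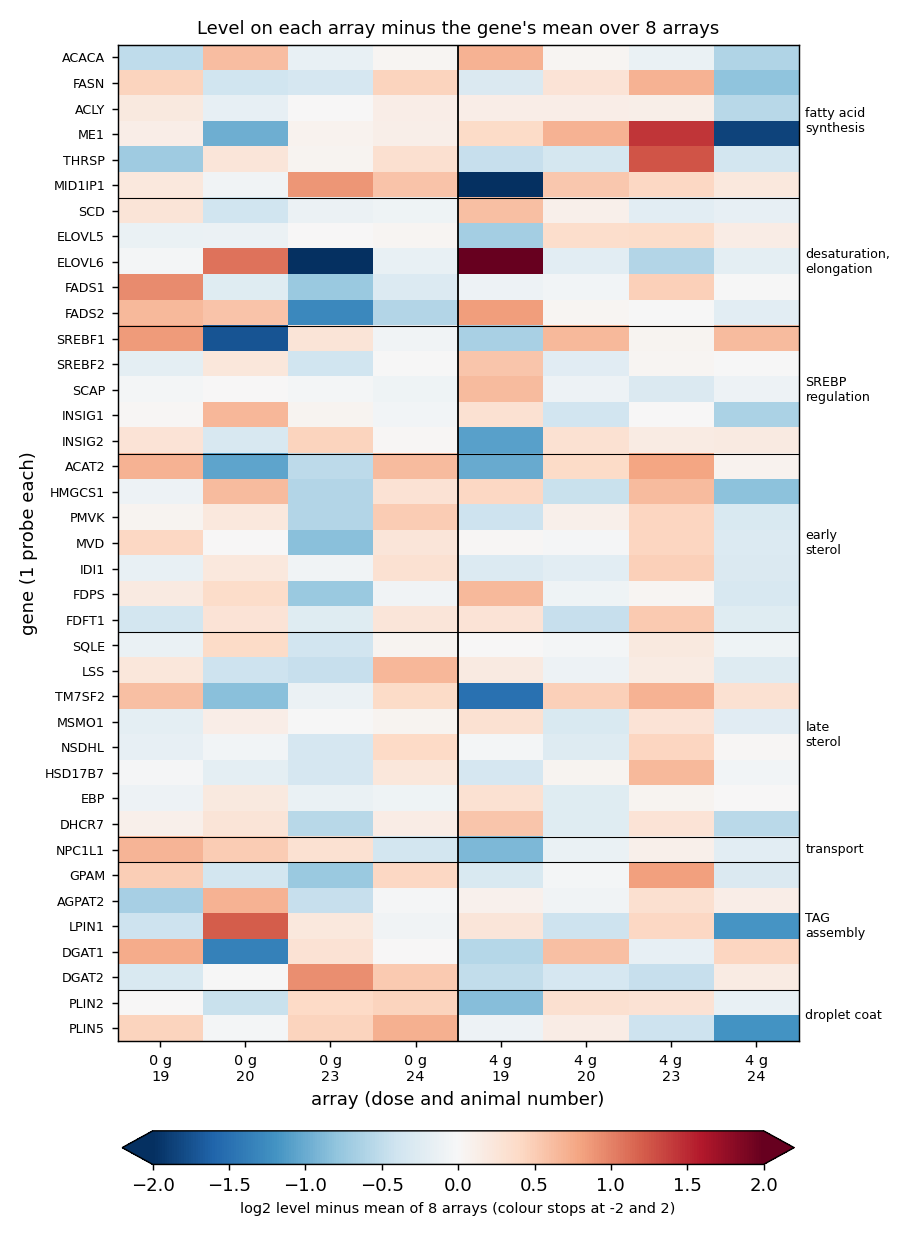
Heat map of the 39 tested members (rows, by role) on the 8 arrays (columns, 0 g left of the line and 4 g right of it), coloured by log2 level minus the gene's mean over 8 arrays. In no row are all 4 arrays of one dose above all 4 of the other. Most sterol genes are pale blue on the 0 g array of 23 and the 4 g array of 24 and pale red on the 4 g array of 23.

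Fatty acid synthesis and its supply were tested at 6 of 7 members, and 0 of 6 passed. Values below are listed in the order of animals 19, 20, 23 and 24. FASN, the fatty acid synthase itself, read -1.58, -2.42, -2.35 and -1.57 at 0 g and -2.31, -1.75, -1.33 and -2.83 at 4 g. The 2 groups overlapped throughout, and FASN was higher at 4 g in animals 20 and 23 and lower in 19 and 24. Its fitted difference was -0.08 ± 0.43 (SE, 4 pairs; 95% confidence interval -1.12 to 0.96), and from -0.44 without animal 23 to 0.31 without animal 24.

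MID1IP1, which helps acetyl-CoA carboxylase form filaments, had the most negative fitted difference of all members. It read -2.57, -2.86, -1.90 and -2.21 at 0 g and -5.55, -2.25, -2.38 and -2.57 at 4 g. On the 4 g array of 19, one of the 2 dim arrays, the probe was not well above background, and the other 7 arrays lay between -2.86 and -1.90. The fit gave -0.80 ± 0.57 (SE; 95% confidence interval -2.17 to 0.57), from -1.27 without animal 20 to -0.08 without animal 19 and -0.22 with normexp.

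ME1, the cytosolic malic enzyme that yields NADPH for fatty acid synthesis, read -2.03, -3.15, -2.09 and -2.05 at 0 g and -1.78, -1.47, -0.74 and -4.02 at 4 g. It was higher at 4 g in 3 animals and lower in animal 24, where the difference was -1.97. The fitted difference of 0.33 ± 0.60 (SE; 95% confidence interval -1.13 to 1.79) became -0.12 without animal 20, -0.01 without animal 23 and 1.10 without animal 24. Without animal 24 ME1 had an unadjusted limma p under 0.05, but not an adjusted one. The fitted differences of ACACA, ACLY and THRSP were nearer 0. ACACA, the rate-limiting carboxylase, lay between -3.79 and -2.49 with a difference of 0.01. ACLY, which cleaves citrate to acetyl-CoA, lay between -4.02 and -3.27 with -0.09. THRSP, the Spot 14 protein that pairs with MID1IP1, lay between 1.58 and 3.56 with 0.04.

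Desaturation and elongation held the most positive fitted difference of the module. All 5 members had a fitted difference above 0 (0.11 to 0.58, median 0.17), where 55.1% of all tested probes were, and 0 of 5 passed the limma test. The 5 were above 0 with normexp, quantile normalisation and the authors' deposited table too, but not when arrays were left out. FADS1 was -0.20 and the FADS2 probe 0.02 without animal 23, ELOVL5 was -0.02 without animal 20, and with animals 19 and 20 alone FADS1, FADS2 and ELOVL5 were -0.43, -0.17 and -0.04. ELOVL6, which elongates palmitate to stearate, read 0.55, 1.68, -1.47 and 0.44 at 0 g and 2.72, 0.38, 0.01 and 0.40 at 4 g. The lowest reading was on the 0 g array of 23 and the highest on the dim 4 g array of 19, a range of 4.19 log2 units that no other tested member reached. The fit gave 0.58 ± 0.57 (SE; 95% confidence interval -0.81 to 1.97). Leaving out 1 animal gave 0.05 without animal 19 to 1.20 without animal 20, and a fit without the 0 g array of 23 and without the block gave -0.01. Without animal 20 ELOVL6 had an unadjusted limma p under 0.05, but not an adjusted one.

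SCD, the stearoyl-CoA desaturase that makes oleate, spanned 1.02 log2 units over the 8 arrays. It read 7.31, 6.65, 6.94 and 6.97 at 0 g and 7.66, 7.15, 6.84 and 6.89 at 4 g, with differences of 0.36 and 0.50 in animals 19 and 20 and of -0.10 and -0.07 in 23 and 24. Its difference of 0.17 had a 95% confidence interval of -0.40 to 0.74. The probe named FADS2, shown above, read -1.27, -1.34, -3.21 and -2.51 at 0 g and -1.08, -1.87, -1.93 and -2.12 at 4 g. The 0 g array of 23 was lowest, all 4 arrays labelled 23 and 24 lay at or below -1.93, and the 4 arrays of 19 and 20 lay at or above -1.87. ELOVL5 and FADS1, which act on polyunsaturated fatty acids, had differences of 0.11 and 0.15.

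SREBP regulation gave no shared direction, with 3 members above 0 and 2 below. SREBF1, the precursor of the SREBP-1 factors that drive lipogenic genes, read -1.24, -3.81, -1.83 and -2.16 at 0 g and -2.74, -1.44, -2.03 and -1.45 at 4 g. It was lowest on the 2 dim arrays, the 0 g array of 20 and the 4 g array of 19, so the differences of animals 19 and 20 were opposite, at -1.50 and 2.37. The fitted difference was 0.34 ± 0.60 (SE; 95% confidence interval -1.10 to 1.78), from -0.33 without animal 20 to 0.96 without animal 19 and 0.03 with normexp. SREBF2, the precursor of the cholesterol-directed SREBP-2, read 2.80, 3.22, 2.60 and 2.98 at 0 g and 3.55, 2.77, 3.03 and 2.99 at 4 g, a difference of 0.19 with overlapping groups.

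INSIG1, the SREBP-responsive retention factor, had the smallest p of this role. It read 5.32, 5.96, 5.36 and 5.24 at 0 g and 5.61, 4.92, 5.31 and 4.66 at 4 g. The difference was -1.04 in animal 20, -0.05 in 23 and -0.57 in 24, and 0.29 in animal 19. The fit gave -0.34 ± 0.29 (SE; 95% confidence interval -1.04 to 0.36), and from -0.55 without animal 19 to -0.11 without animal 20. INSIG2, the constitutive counterpart, read 0.07, -0.52, 0.25 and -0.17 at 0 g and -1.29, 0.11, -0.03 and -0.02 at 4 g, with the dim 4 g array of 19 lowest. SCAP, the escort protein that senses sterol, lay between 2.17 and 3.09 with a difference of 0.08.

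The early sterol pathway, from acetyl-CoA to squalene, was measured at 7 members. HMGCS1, which makes HMG-CoA, read 4.68, 5.41, 4.20 and 5.07 at 0 g and 5.20, 4.34, 5.42 and 3.96 at 4 g. The direction alternated from animal to animal, with 0.53 in 19 and 1.22 in 23 against -1.07 in 20 and -1.11 in 24. The fitted difference was -0.11 ± 0.45 (SE; 95% confidence interval -1.20 to 0.99), and from -0.55 without animal 23 to 0.23 without animal 24.

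IDI1, the isopentenyl diphosphate isomerase, read 3.27, 3.63, 3.36 and 3.73 at 0 g and 3.16, 3.22, 3.91 and 3.13 at 4 g, with the 4 g array of 23 above the other 7. FDPS, which joins isoprene units to farnesyl diphosphate, read 5.81, 5.99, 4.88 and 5.56 at 0 g and 6.27, 5.54, 5.67 and 5.30 at 4 g, with the 0 g array of 23 lowest. Their differences were -0.15 and 0.13, with limma standard errors of 0.27 and 0.29. ACAT2, the cytosolic thiolase that begins the pathway, had the widest range of the role (1.12 to 2.97) and was lowest on both dim arrays. PMVK, MVD and FDFT1 (phosphomevalonate kinase, mevalonate decarboxylase and squalene synthase) had differences of -0.10, 0.08 and 0.05.

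The late sterol pathway, from squalene to cholesterol, was tested at 8 members, and 7 of the 8 intervals lay within a 2-fold change. SQLE, squalene epoxidase and a rate-limiting step, read 5.63, 6.15, 5.38 and 5.82 at 0 g and 5.78, 5.73, 5.96 and 5.68 at 4 g. The 4 g readings lay inside the 0 g range, and the difference was 0.04 with a 95% confidence interval of -0.58 to 0.66. HSD17B7, the sterol 3-keto reductase, read 1.80, 1.63, 1.48 and 2.05 at 0 g and 1.48, 1.88, 2.47 and 1.77 at 4 g, highest on the 4 g array of 23. NSDHL, its partner in removing the C4 methyl groups, read 3.38, 3.49, 3.21 and 3.94 at 0 g and 3.50, 3.29, 3.98 and 3.56 at 4 g, with the same array highest. Their differences were 0.16 and 0.08, with limma standard errors of 0.30 and 0.27.

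EBP, the sterol isomerase, had the smallest range of all tested members (4.41 to 4.97, a span of 0.56), and MSMO1, the C4 methyl oxidase, came next with 0.61. LSS and DHCR7, the cyclase and the final reductase, had differences of -0.01 and 0.02. TM7SF2, a sterol C14 reductase, differed by -0.01 with the widest interval of the role (-1.36 to 1.34) and was lowest on the 2 dim arrays, at 1.04 and 1.69. The SC5DL probe lay between 2.85 and 4.11, with a difference of 0.08 ± 0.30 (SE).

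The sterol members had 1 sign in the arrays labelled 23 and almost throughout the opposite sign in those labelled 24. All 15 tested sterol members were higher at 4 g in the arrays labelled 23 (median 0.79), where 49.4% of all tested probes were higher. In the arrays labelled 24, 14 of 15 were lower (median -0.47; EBP was the exception at 0.09), where 59.1% of all tested probes were higher at 4 g. In animal 19 the split was 8 higher and 7 lower (median 0.12; 54.9% of all tested probes higher), and in animal 20 it was 4 and 11 (median -0.41; 47.1% higher). The pathway median over both groups of steps was 0.04. These counts were 15 of 15 and 14 or 15 of 15 with quantile normalisation, normexp background correction and the authors' deposited table as well.

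**Figure D3:**
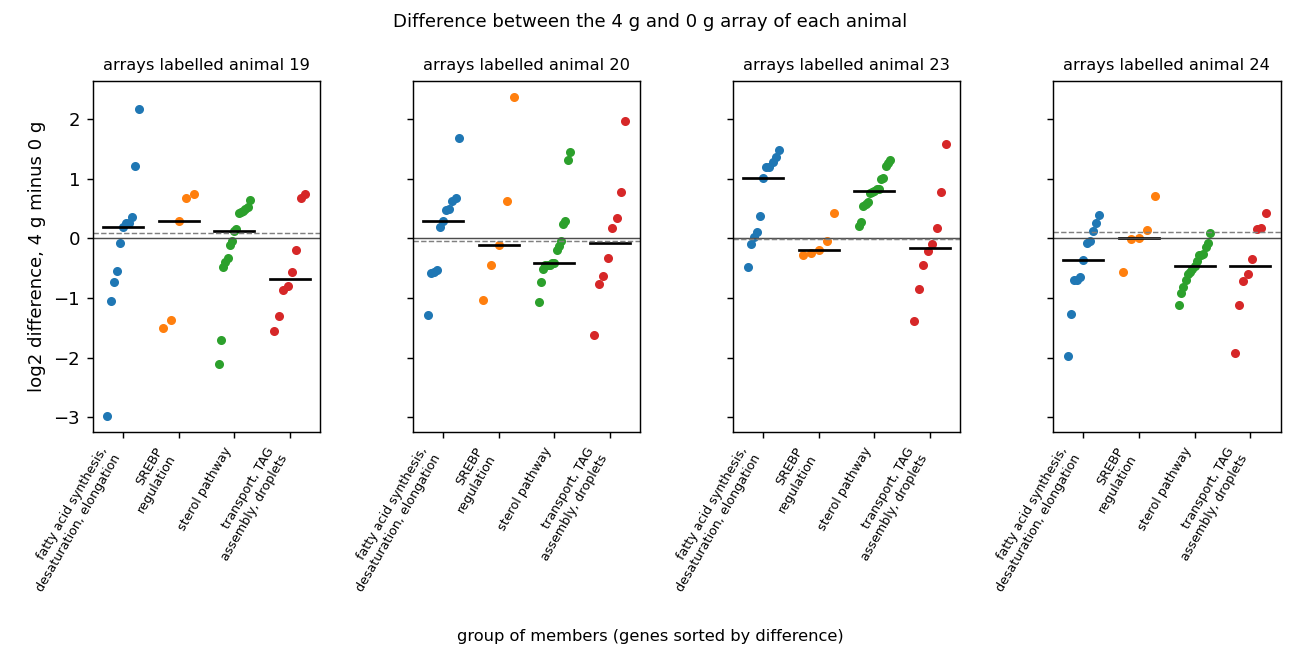
Log2 difference between the 4 g and 0 g array of each labelled animal (1 panel each) for every tested member (points, sorted within 4 groups of roles), with the group median (black bar) and the median of all tested probes (dashed line). The green sterol points all lie above 0 in the arrays labelled 23, and 14 of 15 lie below 0 in those labelled 24.

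Read as levels, the median of the 15 sterol members was 3.38, 3.63, 3.36 and 3.73 on the 0 g arrays and 3.50, 3.29, 3.91 and 3.40 on the 4 g arrays of animals 19, 20, 23 and 24. The 4 g array of 23 was highest and the 4 g array of 20 lowest, and the 2 groups overlapped. The 4 g array of 23 held the highest reading of 8 of the 15 members, and the 0 g array of 23 held the lowest of 8. That 0 g array is the one with pancreatic acinar transcripts and with the highest mean level of adipocyte markers. Its hepatocyte markers had a mean level of 4.60, within the range of the other arrays. In a fit without that array and without the animal block the median difference of all members was -0.07. The part of the acinar and adipocyte transcripts in the sterol levels was not tested. The animal labels of the 4 arrays labelled 23 and 24 are in doubt, so the 2 opposite differences hold only for the arrays paired as labelled.

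The fatty acid members of the arrays labelled 23 went the same way as the sterol members. In those arrays 9 of 11 tested members of synthesis, desaturation and elongation were higher at 4 g (median 1.01), and in the arrays labelled 24, 8 of 11 were lower (median -0.36). In the arrays labelled 23, 10 of 11 were higher with quantile normalisation and 9 of 11 with the deposited table. With normexp 7 of 11 were higher there (median 0.40), where 40.6% of all tested probes were. In those labelled 24 the direction depended on the scaling. Lower were 9 of 11 with quantile normalisation and 8 of 11 with the deposited table. With normexp, which moved the median of all tested probes in 24 from 0.10 to 0.62, 7 of 11 were higher (median 0.68), where 70.2% of all tested probes were. Of all 39 members, 22 were higher in 23 and lower in 24, 4 were the reverse and 13 had 1 sign in both. Sterol members made up 14 of the 22. Over all tested probes 49.4% were higher in 23 and 59.1% in 24, and the share higher in 23 and lower in 24 was not counted.

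In sterol uptake and triacylglycerol assembly 3 of 6 tested members had a fitted difference above 0 and 3 below (NPC1L1, LPIN1 and DGAT2). NPC1L1, the cholesterol transporter known best from the intestine, was close to background and well above it on 6 of 8 arrays. It read -4.28, -4.45, -4.65 and -5.33 at 0 g and -5.85, -5.09, -4.85 and -5.17 at 4 g, lower in 3 animals and higher by 0.16 in 24. The fit gave -0.56 ± 0.33 (SE; 95% confidence interval -1.36 to 0.24), from -0.80 without animal 24 to -0.23 without animal 19 and -0.12 with normexp.

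DGAT2, which adds the last acyl chain to make triacylglycerol, was lower at 4 g in 4 of 4 animals, as were 228 of 10985 probes (2.08%). It read 0.41, 0.70, 1.64 and 1.23 at 0 g and 0.22, 0.37, 0.25 and 0.88 at 4 g, and the groups overlapped because the 4 g reading of animal 24 exceeded the 0 g readings of 19 and 20. The difference was -0.19, -0.33 and -0.35 in animals 19, 20 and 24 and -1.39 in the arrays labelled 23. The 0 g array labelled 23 is the one with pancreatic transcripts, and it also had the highest mean level of adipocyte markers (-2.11). The part of either in the DGAT2 value was not tested. The fit gave -0.57 ± 0.28 (SE; 95% confidence interval -1.25 to 0.12, adjusted p = 1). Leaving out 1 animal gave -0.69 without animal 19 to -0.29 without animal 23, and array weights gave -0.76 with an unadjusted limma p under 0.05.

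LPIN1, the phosphatidate phosphatase, read -4.12, -2.49, -3.48 and -3.77 at 0 g and -3.45, -4.11, -3.29 and -4.88 at 4 g. It was higher at 4 g in 19 and 23 and lower in 20 and 24, and the fitted difference was -0.47 ± 0.42 (SE; 95% confidence interval -1.49 to 0.56). It ran from -0.85 without animal 19 to -0.08 without animal 20, and was -0.13 with normexp. GPAM, which starts glycerolipid synthesis, AGPAT2, which adds the next acyl chain, and DGAT1, the other final acyltransferase, differed by 0.10, 0.23 and 0.16. DGAT1 was well above background on 6 of 8 arrays.

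PLIN5, a droplet coat protein of oxidative tissues, had the smallest p of the module. It read 2.87, 2.38, 2.86 and 3.13 at 0 g and 2.31, 2.56, 2.01 and 1.22 at 4 g. Animals 19, 23 and 24 were lower at 4 g (-0.56, -0.85 and -1.92) and animal 20 was higher (0.18), and 1 of the 4 readings at 4 g lay inside the 0 g range. The means were 2.81 ± 0.31 at 0 g and 2.02 ± 0.58 at 4 g (SD, n = 4), and the paired limma fit gave -0.79 ± 0.37 (SE; 95% confidence interval -1.67 to 0.10, adjusted p = 1). Leaving out 1 animal gave -1.11 without animal 20 to -0.41 without animal 24, animals 19 and 20 alone gave -0.19, and array weights gave -0.98. PLIN5 reached an unadjusted limma p under 0.05 without animal 20, with array weights, without the animal block and without the 2 dimmest arrays, and its adjusted p stayed above 0.05 in each. PLIN2, the general droplet coat protein of liver, read -0.57, -1.03, -0.19 and -0.14 at 0 g and -1.43, -0.26, -0.30 and -0.73 at 4 g, a difference of -0.19 with overlapping groups.

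No member passed the test between animals either. The limma F-test of the animal terms called 0 of 39 members at an adjusted p under 0.05 (0% of all probes) and 0 at an unadjusted p under 0.05, against 298 of 10985 probes (2.71%). The smallest p between animals were those of the FADS2 probe and ELOVL6.

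Animals 19 and 20 ran against each other, and so did the brightness of their arrays. The dim array was the 4 g one in 19 and the 0 g one in 20, and across 10964 probes the 4 g minus 0 g differences of these animals correlated at -0.70, with -0.67 over the 39 members. The other 5 pairs of animals gave -0.21 to 0.18 over all probes and -0.15 to 0.23 over members. Genes share arrays here and are not independent replicates. Of the members, 17 were higher and 15 lower on the dim array in both animals, and 7 went opposite ways (82.1% alike, against 75.8% of all tested probes). This depended on the background correction: with normexp the correlation was 0.18 over all probes and -0.19 over members, and 13 members were higher, 9 lower and 17 opposite (56.4% alike, against 32.8%). Quantile normalisation gave -0.70 and -0.65.

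**Figure D4:**
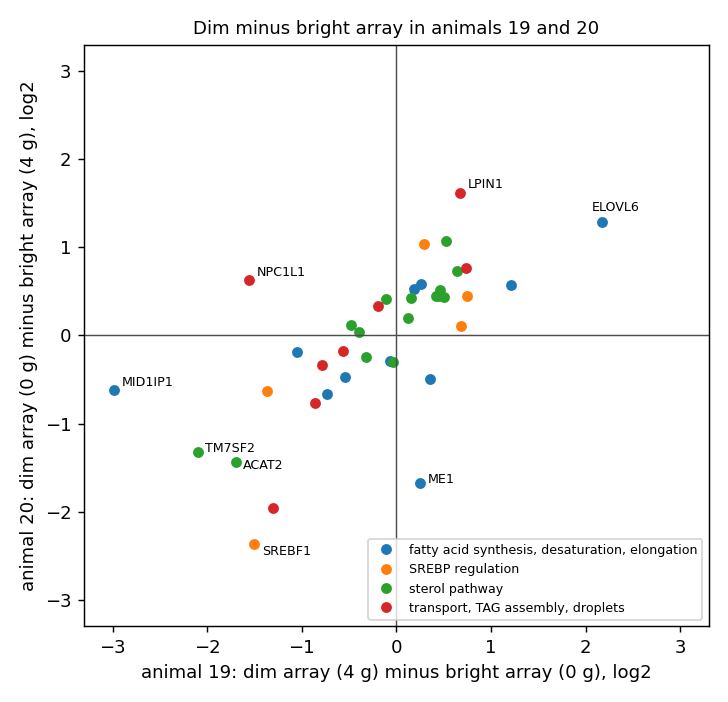
Log2 difference between the dim and the bright array in animal 19 (x axis, 4 g minus 0 g) and animal 20 (y axis, 0 g minus 4 g) for the 39 tested members, coloured by group of roles. Most points lie in the upper right (17) and lower left (15) fields, so that the dose differences of the 2 animals oppose each other.

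The members split within pathways by this measure. Higher on both dim arrays were 8 of 15 sterol members (HMGCS1, FDPS, FDFT1, SQLE, MSMO1, NSDHL, EBP and DHCR7), and lower were ACAT2, LSS, TM7SF2 and HSD17B7. With normexp 8 of 15 were higher too, with IDI1 in place of NSDHL. Both droplet coat genes were lower on the dim arrays, as were SREBF1 and INSIG2, whereas SREBF2, SCAP and INSIG1 were higher, SCAP not with normexp. A fit of dose and array brightness without the animal block, added after the data were seen, called 5 of 39 members (12.8%), against 3326 of 10985 probes (30.3%). ELOVL6 was higher on dim arrays, with a slope of -1.84 per 2-fold gain in brightness (limma, adjusted p = 0.0243). MID1IP1, ACAT2, TM7SF2 and PLIN2 were lower on dim arrays, with slopes of 1.54, 1.24, 1.31 and 0.78 (limma, adjusted p = 0.0477, adjusted p = 0.0184, adjusted p = 0.0130 and adjusted p = 0.0154). With the animal block 0 members and 0 probes were called (2716 probes had an unadjusted limma p under 0.05), and without it but with normexp 0 members and 115 probes (1.05%) were. The part of brightness in the dose differences of these 2 animals cannot be told apart from dose within each of them.

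Genes of the same pathways outside the module were likewise without calls between doses. Of 24 tested other sterol genes 8 had a difference above 0 and 16 below, with a median of -0.05, and 0 had an unadjusted limma p under 0.05. In the arrays labelled 23, 12 of these genes were higher at 4 g and 12 lower (median -0.02). In those labelled 24, 8 were higher and 16 lower (median -0.26). SOAT2, which esterifies cholesterol, had the smallest p of them, with a difference of 1.07 ± 0.71 (SE) and readings of -2.03 at 0 g and 1.75 at 4 g in the arrays labelled 23. ABCA1, the cholesterol exporter, and MYLIP, a sterol-regulated ubiquitin ligase, differed by -0.38 and -0.39.

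Of 32 tested other fatty acid and triacylglycerol genes 13 were above 0 and 19 below (median -0.02), led by MOGAT1, a monoacylglycerol acyltransferase, at 0.43 ± 0.27 (SE; 95% confidence interval -0.23 to 1.09). Of 27 tested regulators and genes of the insulin signal 16 were above 0 and 11 below (median 0.06). NFYB, a subunit of the NF-Y factor that acts beside SREBP on promoters, was higher at 4 g in 4 of 4 animals. Of all tested probes, 576 of 10985 (5.24%) had 1 sign in all 4. The NFYB difference was 0.61 ± 0.29 (SE; 95% confidence interval -0.09 to 1.32). PDK4, a kinase that spares pyruvate in fasting, followed at 0.64 ± 0.33 (SE; 95% confidence interval -0.16 to 1.43). None of these lists had a gene with an adjusted p under 0.05.

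With animals 19 and 20 alone the median difference of the members was -0.04, and 0 were called. In another fit the 0 g arrays labelled 23 and 24 were treated as 1 animal and their 4 g arrays as another. Dose does not vary within either of these, so the dose estimate again rests on animals 19 and 20. That fit is therefore not a separate check. In it 0 members were called, and NPC1L1 had an unadjusted limma p under 0.05.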

How the data were processed

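The authors deposited 1 scanner text file per array with background-subtracted spot intensity, made with Agilent Feature Extraction 11.0.1.1 per the file headers (9.5 per the submitters' processing notes), on a design mapped to UMD 3.1. They also deposited a table of log2 values, which correlated at 1.00 with the log2 processed intensity of each array. Of 15646 features, 536 controls and 48 outlier spots were left out, and the spots of the 24 probes with several were averaged, which left 15008 probes with a value. Log2 processed signal minus each array's 75th percentile entered a linear model with dose and animal as terms (2-sided moderated tests, limma 3.58.1, run under R 4.3.3) for the 10985 probes well above background on at least 4 arrays, with Benjamini-Hochberg adjustment over all of them. The fit was run on simulated data with independent noise, an animal effect and no dim arrays, so its calibration on these arrays was not tested. Of the members' accessions, 35 have the same symbol in the RefSeq table.

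Arrays were paired by the animal number in the title, since each animal receives each dose. Deviations from the dose means correlated at -0.19, -0.18, 0.21 and 0.13 within animals 19, 20, 23 and 24, and at up to 0.62 between other arrays, so the pairing rests on the labels. Members given array by array were the 2 with the smallest unadjusted p in each role, and SREBF1, SREBF2, INSIG1, INSIG2, FASN, SCD, HMGCS1 and SQLE. From each list of other pathway genes at most 3 were named, by the smallest p. The members, the lists and this rule were chosen with earlier results of these data known. The number of arrays limits the precision. Transcript positions of the probes (exon or UTR) were not analysed here, and neither were arrays of the 2 g dose.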

Additional observations from a re-analysis of the deposited data

Results flagged for a closer look

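Each group of 4 values (a member's levels at 0 g, at 4 g, and its 4 differences) was screened for a value far from the other 3, and 10 of 117 groups (8.55%) had one, where chance gives about 5%. On the 4 g array of animal 19, a dim one, MID1IP1 stood at -5.55 (others -2.57 to -2.25), INSIG2 at -1.29 (others -0.03 to 0.11) and ELOVL6 at 2.72 (others 0.01 to 0.40). On the 0 g array of animal 20, the other dim one, ME1 stood at -3.15 (others -2.09 to -2.03) and INSIG1 at 5.96 (others 5.24 to 5.36). The 4 g array labelled 23 held THRSP at 3.56 (others 1.84 to 1.95), IDI1 at 3.91 (others 3.13 to 3.22) and FADS1 at -2.90 (others -3.48 to -3.38). ACLY stood at -4.02 on the 4 g array labelled 24 (others -3.34 to -3.33). The DGAT2 difference in the arrays labelled 23 was -1.39 (others -0.35 to -0.19). None of these genes passed the test between doses.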

How the results depend on the processing

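The count of members called between doses was 0 in every alternative run: normexp correction, quantile normalisation, the deposited table, stricter and no filters, intensity trend with robust variances, array weights, no replicate block, and leaving out animals or arrays. Over all probes the only dose calls were 5, none of them a member, in the fit without the 2 dimmest arrays and without the replicate block. Without the replicate block 0 probes were called and the median member difference stayed at 0.04. With array brightness as a covariate beside the replicate block it was 0.04 too, with 0 called, and with the arrays labelled 23 and 24 re-paired it was -0.04; these 2 fits were added after seeing the data. Leaving out 1 animal moved that median between -0.20 (without 23) and 0.22 (without 24), and the count of probes called between animals between 0 and 1 (without 19, a fit of 3 animals). The planned averaging of several probes per gene could not differ, since each member has 1 probe. Dim probes such as NPC1L1, DGAT1 and MVK sit near background, which limits their values.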
